A study of Mus musculus with 8 samples.

Results

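Endothelial junction and adhesion genes are described here as 8 genes chosen by name: Cdh5, Cldn5, Tjp1, Esam, Jam2, Pecam1, Icam2 and Podxl. All 8 were found among the 28014 genes of the count table, and they were followed over 10 cell types and both genotypes to see which fell and which remained between endothelium, endothelial-to-hematopoietic transition (EHT) cells and blood cells. CITE-seq, in which RNA and antibody tags are counted in the same cell, was run on CD31+ cells sorted from the aorta-gonad-mesonephros region (AGM) of E10.5 mouse embryos. The 5 WT libraries came from embryos labelled C57BL/6 and WT, and the 3 Meis1-flox/VE-Cre libraries from embryos labelled with that strain and the genotype Meis1-knockout. In the latter, Meis1 carries loxP sites at exon 8 and Cre is driven by the VE-cadherin (Cdh5) promoter, so that deletion is directed to endothelium and whatever derives from it. Each library pooled cells of 2 to 5 embryos, and the study calls littermates without Cre WT. Which WT libraries came from such littermates is not resolved. The study's methods give the Cre line a mixed strain name and cross it with Meis1-floxed mice. A difference in strain background between the genotypes was not tested.

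Endothelial cells are held together by adherens junctions and tight junctions and carry a set of adhesion receptors on their surface. During EHT, flat cells of the aortic wall round up, loosen these contacts and leave as blood cells, so the genes that build the contacts are commonly used to follow the loss of endothelial identity. Cdh5 encodes VE-cadherin, the cadherin of endothelial adherens junctions. Cldn5 encodes claudin-5, a strand protein of tight junctions, and Tjp1 encodes ZO-1, the scaffold that ties tight junction proteins to actin. Esam and Jam2 encode immunoglobulin-type adhesion molecules of tight junctions, and ESAM is also carried by platelets. Pecam1 encodes CD31, the protein on which the cells were sorted. Icam2 encodes a ligand of leukocyte integrins, and Podxl encodes podocalyxin, a sialomucin of the luminal surface related to CD34.

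On the mouse genome (GRCm38.p6, RefSeq), Cdh5 lies at chr8:104101613-104144504, Cldn5 at chr16:18776847-18778262, Tjp1 at chr7:65296165-65527850 and Esam at chr9:37528089-37538319. Jam2 lies at chr16:84774123-84826380, Pecam1 at chr11:106654213-106715281, Icam2 at chr11:106377656-106388139 and Podxl at chr6:31519493-31563937. Promoter sequences were held for 2 of the 8 genes, Cldn5 and Tjp1, both of which were lower in EHT than in pre-HE cells, and they are shown as the 250 bases before the annotated start. Capitals mark the GC box GGGCGG, read on either strand, here on the opposite one. The Cldn5 sequence is chr16:18776597-18776846 on the + strand and the Tjp1 sequence is chr7:65371245-65371494 on the - strand, upstream of a start inside the Tjp1 span.
Cldn5: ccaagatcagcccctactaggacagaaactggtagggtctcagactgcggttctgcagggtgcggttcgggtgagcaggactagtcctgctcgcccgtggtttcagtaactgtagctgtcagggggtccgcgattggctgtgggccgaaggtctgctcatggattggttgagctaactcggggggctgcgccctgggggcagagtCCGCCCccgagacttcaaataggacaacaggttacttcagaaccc
Tjp1: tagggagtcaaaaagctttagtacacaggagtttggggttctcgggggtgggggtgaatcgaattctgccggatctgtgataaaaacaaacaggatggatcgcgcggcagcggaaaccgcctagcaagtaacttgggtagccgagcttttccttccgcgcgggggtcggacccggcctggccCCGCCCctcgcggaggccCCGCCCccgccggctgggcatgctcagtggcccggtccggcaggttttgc
Cldn5 held 1 GC box and Tjp1 held 2, against 32.7% of 32851 mouse promoters of the same length with at least 1. The ETS core GGAAG was found at 1 place in Tjp1 and at 0 in Cldn5 (64.1% of all promoters), and the GATA letters AGATAA (9.99%), the RUNX letters TGTGGT (14.0%) and the TATA box TATAAA (12.4%) were found in neither. These matches are letters within a window and no more.

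The 8 libraries held 15168 cells, 651 to 2598 per library, and 20484881 to 79429129 RNA UMIs in all per library. The median depth was 26572 to 28553 UMIs per cell in WT 1 to WT 4, 12720.5 in WT 5 and 9611.5 to 14895 in Meis1-flox/VE-Cre libraries, so depth and genotype were largely joined. A row named CreERT2 held 0 UMIs in the 5 WT libraries and 12, 3 and 19 in Meis1-flox/VE-Cre 1 to 3. Meis1 itself was at 68.0 to 85.8 CPM, UMIs scaled to a total of 1000000 per library and cell type, in EHT cells of WT libraries and 55.5 to 70.9 in Meis1-flox/VE-Cre libraries, ranges that overlapped. A 3' tag need not lie within the deleted exon, so this level does not check the deletion. Of 15135 cell barcodes, 33 occurred in more than 1 library. Runx1, Gfi1, Spi1 and Myb, the markers listed for EHT, summed to 533 to 675 CPM in EHT and 0 to 28.0 in pre-HE libraries of WT, but their means of 551 in EMP and 533 in myeloid cells did not set EHT apart from these. The markers listed for EMP had means of 1167 CPM in pre-HE, 946 in EMP and 846 in aEC, and those for pre-HE 206 in EHT and 169 in pre-HE, so that neither list was highest in its own type. Arterial markers (Gja5, Dll4, Efnb2, Sox17, Hey1, Gja4) summed to 398 to 666 CPM in the cells labelled aEC but 2691 to 3660 in pre-HE.

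In WT, the 8 genes peaked in endothelium, were reduced in EHT cells and were low in EMP and myeloid cells (the plot of levels by cell type). The remainder differed from gene to gene. Megakaryocytes were less uniform, with Esam at a mean of 141 CPM there (4 libraries) and 101 in EHT (5 libraries). The authors clustered cells on RNA, these genes included, and named endothelial clusters partly by Cdh5. The differences between types therefore describe the clusters, and p-values for them are not independent of how the clusters were made. Levels are in CPM, and the spread is over libraries, each with at least 10 cells of that type. Each library is a pool of embryos, so p-values measure the spread between these pools. Fewer cells carrying a gene and less of its RNA per cell give the same summed level, and shares of cells are given further on.

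**Figure D1:**
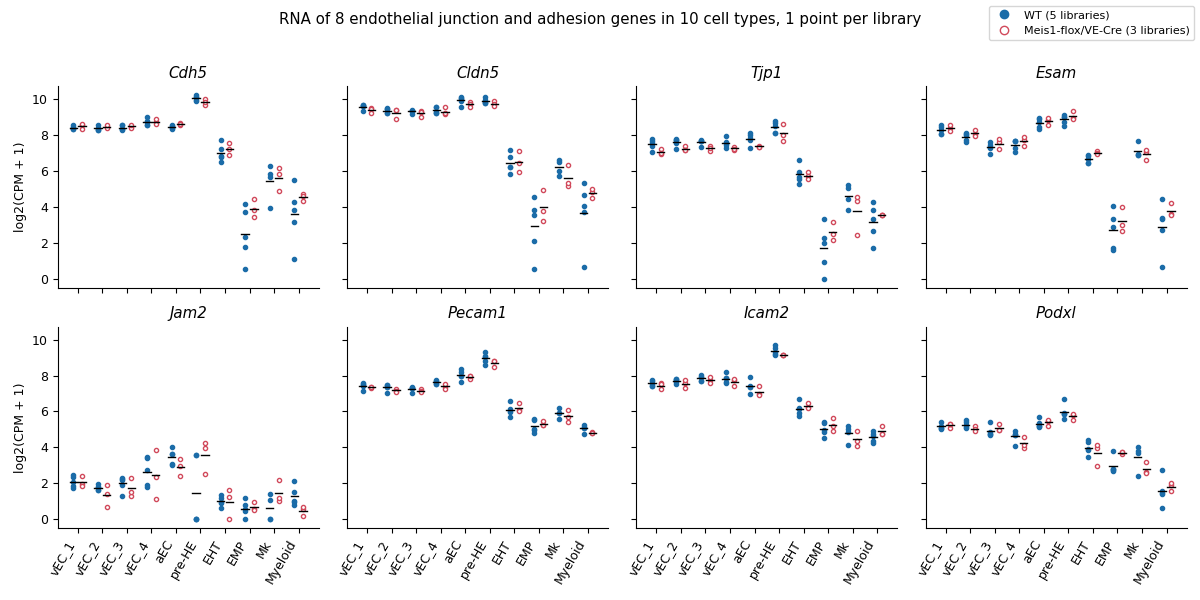
Level of each gene, as log2(CPM + 1) on the y axis, in the 10 cell types on the x axis, with 1 point per library and a bar at the mean of the 5 WT (filled) or 3 Meis1-flox/VE-Cre (open) libraries. Cdh5, Icam2 and Pecam1 stand highest in pre-HE, Cldn5 is about level between aEC and pre-HE, and Esam is higher in megakaryocytes (Mk) than in EHT.

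Within the endothelial clusters, Cdh5 was nearly flat, at 333 ± 24.3 CPM in vEC_2, 340 ± 29.5 in vEC_3, 343 ± 19.5 in vEC_1 and 350.0 ± 20.3 in aEC (SD, n = 5 libraries). It then stood at 427 ± 55.5 in vEC_4 and 1075 ± 108 in pre-HE. Only the steps from pre-HE to vEC_4 and from vEC_4 to aEC separated all 5 libraries of one type from all 5 of the other, and the ranges of the remaining endothelial neighbours overlapped. The step from vEC_4 to aEC separated by less than 1 CPM, and with cells thinned to 5000 UMIs its ranges overlapped. Cldn5 was highest in aEC (995 ± 140) and pre-HE (965 ± 99.8), which overlapped, and lowest in vEC_3 (649 ± 38.1). Esam, in contrast, graded across the clusters from 417 ± 77.4 in aEC to 315 ± 54.1 in vEC_1, 242 ± 34.5 in vEC_2, 179 ± 31.8 in vEC_4 and 162 ± 27.0 in vEC_3. Each of these neighbours held its order in 5 of 5 libraries, although the ranges overlapped. Tjp1 moved little among vEC clusters, between 184 ± 33.1 in vEC_1 and 197 ± 28.1 in vEC_2.

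Over all 10 cell types and 8 genes there were 72 pairs of neighbouring levels. In 34 of them every WT library had the same order, and in 17 the ranges did not overlap. With cells thinned to 5000 UMIs these numbers were 29 and 12. With 5 libraries the exact two-sided sign-flip permutation test can give no p below 0.062, and with the 4 libraries that held enough megakaryocytes none below 0.125, so no neighbour could pass 0.05. EHT ranked 7 or 8 of the 10 types from the top for every gene, below all endothelial clusters and above EMP and myeloid cells for each gene but Jam2, where myeloid cells stood at 1.57 ± 1.08 CPM and EHT at 1.03 ± 0.392.

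The first comparison set pre-hemogenic endothelium (pre-HE), an endothelial state placed by the study ahead of Runx1 expression, against the arterial cluster aEC in the same WT libraries. Of the 8 genes, 5 rose in pre-HE and none fell, against 21.1% of all 8143 genes called higher and 21.1% called lower. Differences were tested with edgeR's quasi-likelihood test on counts summed per library and cell type, with the library as a block, and p-values are Benjamini-Hochberg adjusted over all genes tested, with 0.1 as the threshold.

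Icam2, the integrin ligand, stood at 167, 166, 126, 241 and 163 CPM in aEC of WT 1 to 5, against 630.3, 598, 746, 837 and 573 in pre-HE of the same libraries. The ranges did not overlap, and Icam2 rose by 1.86 on the log2 scale (SE 0.10, adjusted p = 2.33e-19). Cdh5 was at 373, 332, 326, 354 and 365 CPM in aEC and 1185, 1134, 1134, 981 and 940 in pre-HE. It was higher in pre-HE in every library and rose by 1.51 (SE 0.09, adjusted p = 8.38e-19). Pecam1 rose by 0.81 (SE 0.10, adjusted p = 6.82e-09), from 263 ± 47.7 to 507 ± 94.9 CPM. Smaller rises passed the test for Tjp1, at 225 ± 44.5 and 351 ± 74.5 CPM (log2 difference 0.49, SE 0.11, adjusted p = 0.00043), and for Podxl, at 39.2 ± 6.30 and 64.6 ± 22.0 (0.46, SE 0.18, adjusted p = 0.0393). The Podxl call rested on few counts, 139 in pre-HE, and WT 5 alone reached 103 CPM from 16 counts. Without WT 5 its difference was 0.31 (adjusted p = 0.197). Leaving out WT 1 gave 0.44 (adjusted p = 0.142), so that the call rested on both. The 3 remaining genes did not pass. Cldn5 differed by -0.13 (SE 0.09, adjusted p = 0.247), Esam by 0.13 (SE 0.10, adjusted p = 0.324) and Jam2 by -0.52 (SE 0.39, adjusted p = 0.326). When WT 4 was left out Cldn5 passed as lower (-0.22, adjusted p = 0.0590), as it did when WT 5 was (-0.21, adjusted p = 0.0832).

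The second comparison was the step from pre-HE to EHT, the cells in which blood genes come on. All 7 genes that could be tested fell in EHT, against 30.0% of 8467 genes called lower and 31.6% called higher, and the lowest pre-HE library stood above the highest EHT library for each of the 7. Their median log2 difference was -2.82, where the median over all genes tested was 0.04.

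Cldn5 fell furthest. Its pre-HE level was 896, 1008, 875, 1119 and 927 CPM in WT 1 to 5, and its EHT level was 73.8, 55.7, 110.3, 145 and 74.9 CPM, a log2 difference of -3.39 (SE 0.13, adjusted p = 4.85e-21). Icam2 was at 70.9, 52.6, 69.4, 104 and 59.7 CPM in EHT and fell by 3.20 (SE 0.11, adjusted p = 5.58e-22). Cdh5 was at 91.1, 108, 113, 213 and 148 in EHT and fell by 2.98 (SE 0.14, adjusted p = 1.21e-18). In all 3 genes WT 4 was the highest EHT library, and it too lay far under its own pre-HE cells. Pecam1 fell by 2.82 (SE 0.13, adjusted p = 4.98e-19) to 67.7 ± 16.2 CPM and Tjp1 by 2.49 (SE 0.17, adjusted p = 1.43e-14) to 58.5 ± 23.1. The smallest falls were those of Esam and Podxl. Esam was at 523, 560.2, 421, 517 and 360.5 CPM in pre-HE and at 113, 99.6, 86.9, 118 and 85.8 in EHT, a log2 difference of -2.19 (SE 0.11, adjusted p = 8.61e-18). Podxl fell by 1.89 (SE 0.23, adjusted p = 1.35e-08), from 64.6 ± 22.0 to 15.2 ± 4.10 CPM.

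**Figure D2:**
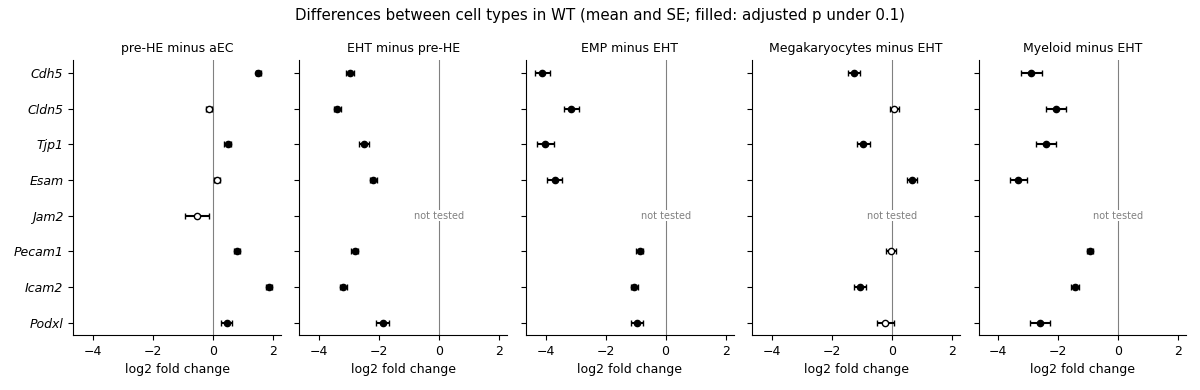
Log2 fold change of each gene in WT (x axis, edgeR, with bars for 1 SE, filled where the adjusted p is under 0.1). Panels give pre-HE minus aEC, EHT minus pre-HE and each blood type minus EHT. All genes tested lie below 0 for EHT minus pre-HE. For Mk minus EHT, Esam lies at 0.66 while Cdh5, Icam2 and Tjp1 lie below 0.

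What remained in EHT can be given as a share of the pre-HE level, from the counts of the 5 WT libraries added up. EHT cells kept 9.26% of the Cldn5 level (95% exact interval 8.56 to 10.0), 10.0% of Icam2 (9.16 to 10.95) and 13.5% of Cdh5 (12.6 to 14.4). They kept 20.4% of Esam (18.8 to 22.3) and 26.8% of Podxl (21.1 to 34.0). The intervals cover counting error only, in which UMIs are taken as independent molecules. Those of Cldn5 and Icam2 lie wholly below those of Esam and Podxl, while those of Cldn5 and Icam2 overlap. Because the falls were unequal, the make-up of the summed UMIs of the 8 genes changed. Esam made up 11.5 ± 1.46% of them in pre-HE and 19.2 ± 3.64% in EHT, Cldn5 23.5 ± 2.42% and 16.7 ± 3.73%, while Cdh5 was 26.1 ± 2.22% and 24.6 ± 4.14% (SD, n = 5).

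Jam2, the junctional adhesion molecule, was low in every type. In WT it was at 10.5 ± 3.36 CPM in aEC (188 counts), where it was highest, and at 4.43 ± 6.06 in pre-HE, from 20 counts, of which WT 1 held 6 and WT 4 held 14 and the other WT libraries 0. EHT cells held 10 counts in all. It was removed by the filter on low counts before the EHT test, and without the filter it differed by -2.28 (SE 0.73, adjusted p = 0.00691). The counts were too few to place Jam2 among the types that follow aEC.

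The third set of comparisons set each blood type against EHT cells of the same WT libraries. The study holds that these blood cells likely come from the yolk sac, with perhaps a few made by EHT at this stage. Falls and rises here are differences between clusters and do not show stages that follow EHT. In erythro-myeloid progenitors (EMP), all 7 genes tested fell (28.8% of 9252 genes were called lower and 27.6% higher), but by very different amounts. The junction genes differed most. Cdh5 was at 3.96, 0.47, 2.42, 17.2 and 12.2 CPM in EMP of WT 1 to 5, below every EHT library, and differed by -4.10 (SE 0.24, adjusted p = 4.23e-09). Tjp1 differed by -4.01 (SE 0.28, adjusted p = 2.35e-08), Esam by -3.69 (SE 0.25, adjusted p = 2.13e-08) and Cldn5 by -3.14 (SE 0.25, adjusted p = 1.10e-07).

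The surface receptors fell least. Pecam1 was at 68.5, 63.3, 51.0, 94.2 and 61.4 CPM in EHT and at 30.1, 26.3, 45.5, 46.3 and 31.1 in EMP, lower in every library, with a log2 difference of -0.86 (SE 0.13, adjusted p = 4.43e-05). Icam2 was at 27.7, 30.8, 21.8, 40.8 and 39.3 CPM in EMP and differed by -1.04 (SE 0.13, adjusted p = 6.95e-06). Podxl was at 7.20 ± 3.32 CPM and differed by -0.94 (SE 0.20, adjusted p = 0.00108). From pooled counts, EMP cells held 51.1% of the EHT level of Pecam1 (45.8 to 57.1), 50.9% of Podxl (40.2 to 64.4) and 45.25% of Icam2 (40.5 to 50.6). Of Cdh5 they held 5.93% (4.98 to 7.04), of Tjp1 6.51% (5.02 to 8.35), of Esam 7.70% (6.40 to 9.19) and of Cldn5 11.6% (9.85 to 13.5). Pecam1 and Icam2 together therefore made up most of the UMIs of the 8 genes in EMP, at 36.5 ± 8.62% and 33.0 ± 9.44%. Cells were sorted on CD31, the product of Pecam1, so that a type without this protein would not have been collected.

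In myeloid cells 7 of 7 genes tested fell below EHT (30.6% of 9466 genes lower, 31.8% higher). Pecam1 was at 32.9, 25.7, 34.0, 36.4 and 33.3 CPM in the 5 WT libraries, each below the EHT cells of the same library, and the difference of -0.94 (SE 0.11, adjusted p = 2.91e-05) was the smallest. Icam2 followed at -1.45 (SE 0.13, adjusted p = 4.46e-06). Esam differed by -3.33 (SE 0.29, adjusted p = 2.71e-06), Cdh5 by -2.89 (SE 0.34, adjusted p = 3.06e-05), Podxl by -2.62 (SE 0.34, adjusted p = 5.46e-05) and Tjp1 and Cldn5 by -2.42 (SE 0.33, adjusted p = 8.88e-05) and -2.09 (SE 0.33, adjusted p = 0.000279). Podxl, at 50.9% of the EHT level in EMP, was at 13.8% (10.6 to 17.9) in myeloid cells. The comparisons of EMP and of myeloid cells share their EHT samples, and the difference between them was not tested. The low levels varied strongly between libraries. Cdh5 in myeloid cells was at 18.5, 7.95, 1.12, 13.5 and 45.3 CPM, and Cldn5 at 15.5, 12.4, 0.558, 24.3 and 39.8, with WT 5 highest and WT 3 lowest in both.

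Megakaryocytes (Mk), the platelet precursors, were the exception. Among 4 WT libraries with at least 10 such cells (WT 3 held 5), 1 gene rose, 3 fell and 3 did not pass, where 28.1% of 8878 genes were called higher and 26.2% lower. Esam was at 113, 99.6, 118 and 85.8 CPM in EHT of WT 1, 2, 4 and 5 and at 203, 117, 120.0 and 124 in Mk. It was higher in Mk in 4 of 4 libraries, though the highest EHT library stood above the lowest Mk library, and it rose by 0.66 (SE 0.17, adjusted p = 0.00798). WT 1 stood apart in Mk, and without it the rise was 0.44 (adjusted p = 0.00871). From pooled counts the Mk level was 126% of that in EHT (115 to 139). The fitted rise is on the TMM scale, which discounts genes that take a large share of a library, while the ratio is per total UMIs. The platelet genes Pf4, Itga2b, Gp9, Gp1bb and Ppbp summed to 20615 to 39567 CPM in Mk against 71.4 to 82.4 in EHT.

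Cdh5, Icam2 and Tjp1 fell in Mk, by 1.27 (SE 0.20, adjusted p = 0.000525), 1.07 (SE 0.19, adjusted p = 0.00123) and 0.96 (SE 0.21, adjusted p = 0.0039). Cdh5 was at 14.2, 50.7, 55.5 and 77.8 CPM in these Mk libraries, a wide spread with WT 1 far below the others. Cldn5 (0.07, SE 0.15, adjusted p = 0.724), Pecam1 (-0.03, SE 0.17, adjusted p = 0.892) and Podxl (-0.22, SE 0.29, adjusted p = 0.578) did not pass. Per total UMIs they stood lower. From pooled counts Mk held 84.1% of the EHT level of Cldn5 (74.7 to 94.6), 78.4% of Pecam1 (68.5 to 89.7) and 71.4% of Podxl (52.5 to 96.2). Each was higher in Mk in 1 of 4 libraries. Cldn5 in Mk was at 62.1, 52.1, 96.0 and 90.3 CPM. The arterial markers summed to 29.4 to 48.0 CPM in the same Mk libraries and to 42.6 to 136 in EHT, the venous markers to 33.8 to 131 CPM in Mk (mean 74.6) and 8.20 to 109 in EHT (mean 59.5), and 3 of 359 Mk cells were marked as doublets. Their part in the Mk levels of Cdh5 and Cldn5 was not tested.

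Levels per cell were compared after every cell had been thinned to 5000 UMIs, which left out 101 shallower cells. At that depth a pre-HE cell of WT showed a UMI of 5.65 ± 0.262 of the 8 genes (mean over cells, SD over n = 5 libraries), an aEC cell of 4.59 ± 0.197 and an EHT cell of 1.96 ± 0.332. In EMP the number was 0.404 ± 0.123, in Mk 1.19 ± 0.124 (n = 4) and in myeloid cells 0.381 ± 0.131. The lowest pre-HE library (5.19) stood well above the highest EHT library (2.42), and the lowest EHT library (1.54) above the highest Mk, EMP and myeloid libraries. Of WT pre-HE cells, 99.4% showed at least 4 of the 8 genes, against 17.2% of EHT, 9.09% of Mk and 0.769% of EMP cells. At the other end, 22.8% of WT EHT cells showed none of the 8 at this depth, against 31.6% of Mk, 65.6% of EMP and 0.0% of pre-HE cells.

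**Figure D3:**
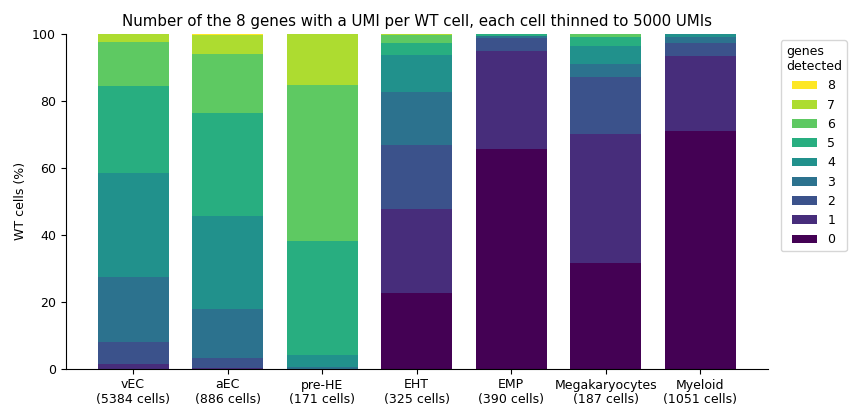
Stacked bars give the share of WT cells (y axis, percent) with a UMI of 0 to 8 of the genes (colour), each cell thinned to 5000 UMIs, for 7 cell types on the x axis. Of pre-HE cells 99.4% have 4 or more of the genes, while 65.6% of EMP and 70.9% of myeloid cells have none, and EHT cells spread between, with 22.8% at 0.

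Gene by gene, Cdh5 was found in 98.9 ± 2.48% of WT pre-HE cells and 44.1 ± 7.28% of EHT cells, Cldn5 in 97.9 ± 2.29% and 26.7 ± 8.17%, and Esam in 83.5 ± 12.6% and 38.8 ± 5.88%. For comparison, myeloid cells, which should lack Cdh5, showed it in 4.12 ± 3.93%, a level that EMP cells at 2.54 ± 2.77% did not exceed. Without thinning the Cdh5 shares were 82.1 ± 10.3% in EHT, 12.4 ± 7.37% in EMP and 17.6 ± 8.64% in myeloid cells, whose median depths were 17984.5, 24015 and 25445 UMIs per cell over both genotypes. Pecam1 was the most widespread of the 8 in EMP, with 15.8 ± 6.03% of cells, and Icam2 was next at 11.8 ± 7.90%. Esam was found in 49.4 ± 11.6% of Mk cells but in 1.89 ± 2.70% of EMP and 2.11 ± 1.74% of myeloid cells. At 5000 UMIs per cell Jam2 gave a UMI in 0 of 390 EMP cells, which allows a share of cells with a UMI of up to 0.769% at this depth, and in 0 of 187 Mk cells, which allows 1.60%. Without thinning, 2.44 ± 2.00% of EMP cells and 1.74 ± 2.04% of Mk cells had a Jam2 UMI, so that its zeros here do not show that the gene was off.

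Junction and blood genes were found side by side within EHT cells. Of 325 WT EHT cells thinned to 5000 UMIs, 73 showed both Cdh5 and Runx1, the transcription factor needed for EHT, 72 Cdh5 alone, 118 Runx1 alone and 62 neither. The share with both was 23.2 ± 4.01% over libraries. In pre-HE it was 2 of 171 cells and in aEC 4 of 886. Esam with Runx1 was found in 64 and Cldn5 with Runx1 in 48 of the 325 EHT cells. With Ptprc (CD45), Cdh5 was found in 17, Esam in 11 and Cldn5 in 5 of the EHT cells. In Mk, 46 of 187 cells showed both Esam and Runx1. Of all 488 EHT cells 15 were marked as doublets, and leaving these out changed no call.

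The antibody tags gave an order within EHT that the clustering had not used. EHT cells of each library were split at the library's median count of the tag for CD43 (sialophorin, a surface protein of emerging blood cells, encoded by Spn), which could be done in 7 libraries, since WT 4 held no tag counts. All 6 genes tested were lower in CD43-high cells, where 7.08% of 6119 genes were called lower and 5.05% higher. The median log2 difference of the 6 genes was -1.12.

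Cldn5 was at 163, 112, 204 and 94.5 CPM in CD43-low cells of WT 1, 2, 3 and 5 and at 18.7, 13.2, 25.5 and 59.0 in their CD43-high cells. In the Meis1-flox/VE-Cre libraries it was at 158, 224 and 66.2 in CD43-low and at 36.9, 63.5 and 57.0 in CD43-high cells. It was lower in CD43-high cells in 7 of 7 libraries, least so in WT 5 and Meis1-flox/VE-Cre 3, and fell by 2.03 (SE 0.22, adjusted p = 2.68e-08). Icam2 (-1.44, SE 0.17), Esam (-1.14, SE 0.12), Cdh5 (-1.09, SE 0.13) and Pecam1 (-0.91, SE 0.15) were also lower in 7 of 7 libraries. Cdh5 averaged 187 ± 59.1 CPM in CD43-low and 87.2 ± 32.3 in CD43-high cells. Tjp1 was lower in 6 of 7, with WT 5 at 46.1 and 46.2 CPM, and its difference was -0.77 (SE 0.18, adjusted p = 0.00421). Podxl, which was not tested, averaged 13.9 and 13.0 CPM and was lower in 4 of 7.

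**Figure D4:**
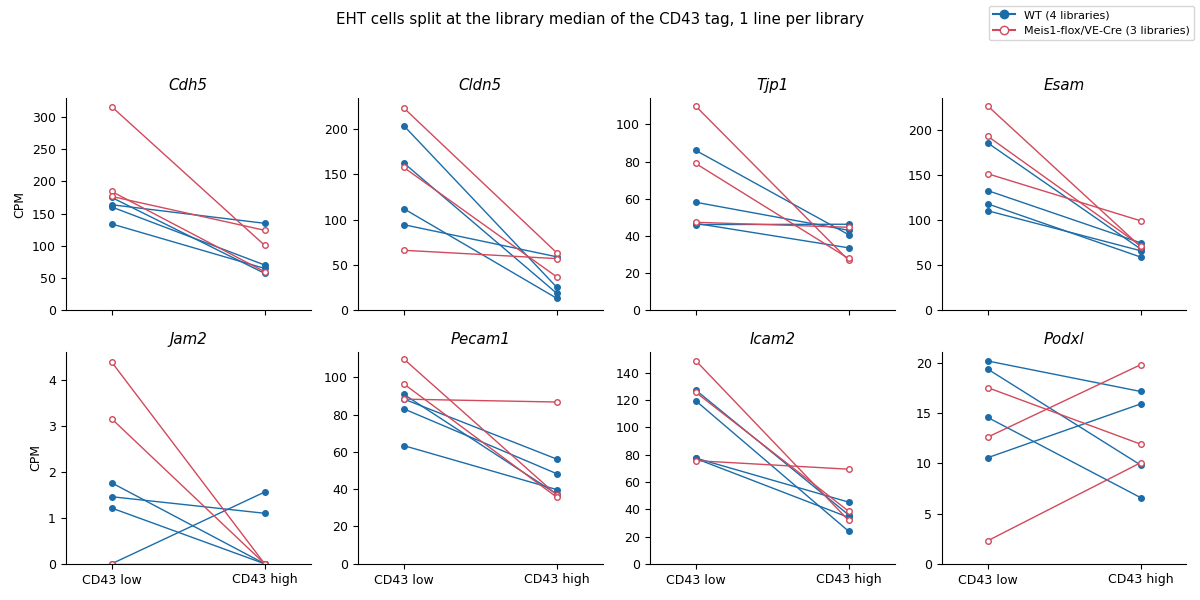
Level of each gene, as CPM on the y axis, in CD43-low and CD43-high EHT cells, with a line for each of the 7 libraries (WT filled, Meis1-flox/VE-Cre open). Cldn5, Icam2, Esam, Cdh5 and Pecam1 are lower in CD43-high cells along every line, and Podxl along 4 of 7.

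Along the same split, Spn RNA rose from 15.8 to 33.8 CPM on average (7 of 7 libraries), while Runx1 stood at 154 to 232 CPM in CD43-low and 183 to 221 in CD43-high cells, ranges that overlapped. Gfi1, a repressor in the same hematopoietic programme, had a mean of 58.7 CPM in CD43-low and 26.6 in CD43-high cells and was lower in 7 of 7 libraries. Spi1, which encodes the transcription factor PU.1, was at 231 and 211 CPM, lower in 5 of 7, and Ptprc, which encodes CD45, at 33.9 and 42.9 CPM, lower in 2 of 7. CD43-high cells were also deeper in RNA in all 7 libraries, with medians of 36167.5 against 24794 UMIs in WT 1. With every cell thinned to 5000 UMIs, 5 of the 5 genes that could be tested fell, Cldn5 by 2.03 and Cdh5 by 1.17, and Tjp1 was too low to test. Taken per RNA UMI of the cell, the tag gave the same number of calls, 6 of 6, with Cldn5 at -2.05 and Cdh5 at -0.92. For thinned counts and for the tag per RNA UMI, the share of all genes called is not given here. The tag for CD45.2 gave 0 of 6, and 1 at an unadjusted p under 0.05. Its median was 1 to 5 tags per cell in WT 5 and the Meis1-flox/VE-Cre libraries. Over all genes it called 9, where the CD43 tag called 742. The 0 of 6 is therefore not read as a result about the members. CD43-high EHT cells thinned to 5000 UMIs showed 1.36 ± 0.374 of the 8 genes and CD43-low cells 2.42 ± 0.345 (n = 7), lower in 6 of 7 libraries.

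The study compared the proportions of cells in each cluster between genotypes, and scored gene signatures within pre-HE and EHT cells. By these scores it reports that pre-HE cells of Meis1-flox/VE-Cre embryos appeared less advanced, and their EHT cells more immature, than in WT. Here the 8 genes were compared between genotypes within each cell type. With edgeR's quasi-likelihood test 0 members passed in each of the 7 types. An unadjusted p under 0.05 was found for 1 in vEC, 2 in aEC, 1 each in EHT, EMP and myeloid cells and 0 in pre-HE and Mk. DESeq2 called 1 in vEC, Tjp1, and 0 in the other types. The shares of all genes at that unadjusted p and with DESeq2 are not given here. These counts are therefore not read as results about the members. The number of the 8 genes per EHT cell was 1.96 ± 0.332 in WT and 1.97 ± 0.140 (n = 3) in Meis1-flox/VE-Cre libraries. By edgeR at an adjusted p under 0.1, the share of all genes called was 0.0164% in vEC (all 4 vEC clusters together), 0.0% in aEC and 0.489% in pre-HE. It was 0.127% in EHT, 4.74% in EMP, 0.206% in Mk and 3.26% in myeloid cells. The test of whether the step from pre-HE to EHT differed between genotypes likewise passed for 0 of 7 genes (0.0374% of all genes). DESeq2 called 0 too, and before adjustment 0 had p under 0.05. Its largest estimates were 0.40 for Cdh5 (SE 0.22) and 0.37 for Icam2 (SE 0.20), with adjusted p = 1.0 for both and unadjusted p = 0.0793 and 0.0669.

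In pre-HE, where the loss of Meis1 was of most interest to the study, Cdh5 was at 1185, 1134, 1134, 981 and 940 CPM in WT and 1025, 833 and 928 in Meis1-flox/VE-Cre libraries. The groups overlapped, and the log2 difference was -0.16 (SE 0.18, adjusted p = 0.916). Icam2 was at 573 to 837 CPM in WT and at 554, 565 and 575 in Meis1-flox/VE-Cre libraries, overlapping by the lowest WT library alone (-0.23, SE 0.20, adjusted p = 0.882). In EHT, Esam was at 113, 99.6, 86.9, 118 and 85.8 CPM in WT and at 136, 129 and 122 in Meis1-flox/VE-Cre libraries. These groups did not overlap, but the difference of 0.39 (SE 0.13) had an adjusted p of 0.340.

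Tjp1 had the smallest adjusted p of the 8 genes in both vEC and aEC. In vEC the WT libraries 1 to 5 stood at 209, 189, 209, 208 and 149.9 CPM, and Meis1-flox/VE-Cre 1 to 3 at 162, 135 and 144. The 4 deeply sequenced WT libraries lay above all 3 Meis1-flox/VE-Cre libraries, and WT 5 lay among them. The difference was -0.35 (SE 0.11, adjusted p = 0.209) and, without WT 5, -0.42 (adjusted p = 0.0166). With WT 5 as the only WT library it was -0.04, and with median depth as a covariate -0.01. In aEC Tjp1 was at 231, 210, 272, 255 and 158 CPM in WT and at 164, 169 and 162 in Meis1-flox/VE-Cre libraries, and the difference was -0.42 (SE 0.15, adjusted p = 0.373), or -0.52 without WT 5 (adjusted p = 0.0346). WT 5 had a median depth of 12720.5 UMIs per cell, near the 9611.5 to 14895 of the Meis1-flox/VE-Cre libraries, and the other WT libraries 26572 or more. Genotype and depth cannot be told apart for Tjp1 here.

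In EMP, Podxl was at 5.95, 6.06, 5.33, 13.1 and 5.56 CPM in WT and at 12.2, 11.5 and 12.5 in Meis1-flox/VE-Cre libraries, so that WT 4 alone reached the higher group. The difference was 0.72 (SE 0.31, adjusted p = 0.256), or 1.13 without WT 4 (adjusted p = 0.0347). Erythroid genes summed to 4.84 to 150.4 CPM in WT and 240 to 1315 in Meis1-flox/VE-Cre EMP. In Mk the erythroid sum was 295 to 4981 in WT and 7135 to 30729 in Meis1-flox/VE-Cre libraries, and Podxl differed by -0.85 (SE 0.42, adjusted p = 0.602) and Cldn5 by -0.54 (SE 0.30, adjusted p = 0.638). In myeloid cells Icam2 differed by 0.37 (SE 0.16, adjusted p = 0.297), and by 0.47 without WT 5 (adjusted p = 0.0741), when Cdh5 also passed at 1.02 (adjusted p = 0.0988). With WT 5 as the only WT library Cdh5 passed in the opposite direction, at -0.93 (adjusted p = 0.0497). With median depth as a covariate no member passed in these 3 types, with Podxl in EMP at 1.27 (adjusted p = 0.758) and in myeloid cells Icam2 at -0.16 (adjusted p = 0.999) and Cdh5 at -1.02 (adjusted p = 0.980). The part of erythroid RNA in these values was not tested.

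**Figure D5:**
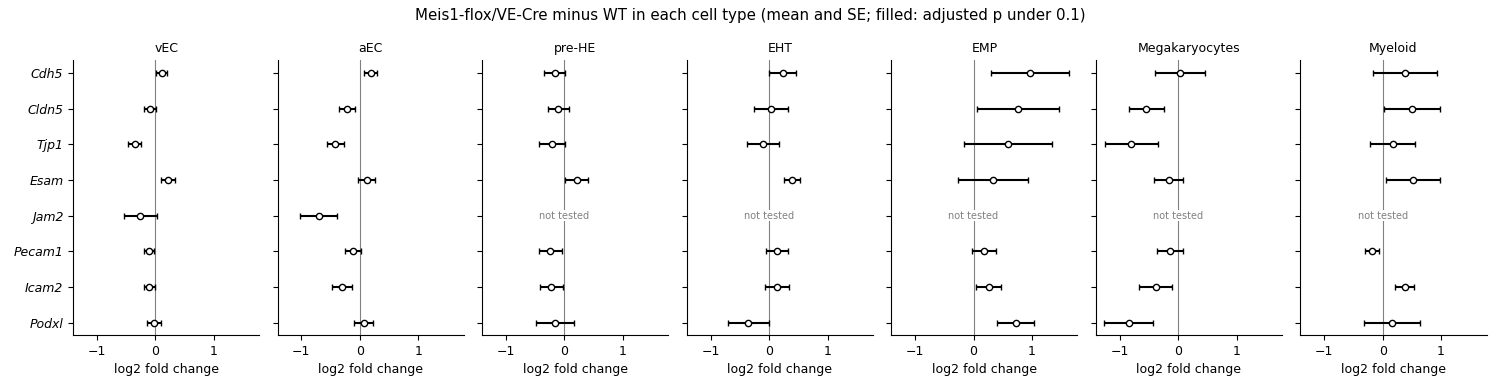
Log2 fold change of each gene between Meis1-flox/VE-Cre and WT libraries (x axis, edgeR, with bars for 1 SE) in 7 cell types, with vEC as the 4 vEC clusters together. No gene passed the test in any type, and the bar of Cdh5 spans an SE of 0.66 in EMP against 0.09 in vEC.

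A wider list of 71 other junction and adhesion genes sets the 8 genes beside their pathway. Those named are the ones with the largest changes among genes with a mean log2 CPM of at least 5. From aEC to pre-HE, 27 of 49 tested rose and 10 fell (median log2 difference 0.38, against 0.01 over all genes). Over all genes 21.1% were called higher and 21.1% lower. The gap junction genes Gja5 (7.40, SE 0.20) and Gja4 (3.18, SE 0.12) and Ptprb, the VE-cadherin partner phosphatase (2.71, SE 0.13), rose most, while N-cadherin (Cdh2) fell by 3.15 (SE 0.14), Itga4 by 2.29 and Pcdh12 by 1.56. The rise of Cdh5 was thus accompanied by a fall of Cdh2, from 473 to 48.2 CPM. From pre-HE to EHT, 37 of 52 tested fell and 8 rose (median -1.72, against 0.04). Over all genes 30.0% were called lower and 31.6% higher. All 11 adherens junction genes and all 9 vascular adhesion receptors that were tested fell. Gja5 (-6.21), Gja4 (-5.40) and Mcam (-4.84) fell most. The 8 that rose were 3 of 9 integrins, 3 of 3 leukocyte adhesion genes and 2 of 10 polarity and small GTPase genes, with Itga4, an integrin subunit of blood progenitors, at 3.20 (SE 0.27), Rap1b at 0.65 and Cd44 at 0.36 (adjusted p = 0.0931).

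From EHT to EMP, 32 of 51 genes of the wider list fell and 12 rose. Over all genes 28.8% were called lower and 27.6% higher, so the share that rose was not above that over all genes. Emcn (-2.68), Cd34 (-1.58) and Ctnnb1, which encodes beta-catenin (-1.31), fell most, and Ezr (1.45), Itga2b (1.33) and Rap1b (0.74) rose most. In Mk 18 of 50 rose and 18 fell, where 28.1% of all genes were called higher and 26.2% lower. Itga2b (5.30) and Itgb3 (4.13), the platelet fibrinogen receptor, and Rap1b (3.71) rose most, and Itga4 (-2.54), Cd34 (-2.40) and Cd44 (-2.01) fell most, so that Esam rose beside platelet integrins. In myeloid cells 13 of 51 rose, led by Itgb5 (5.66), Itgam (2.90) and Ptprc (2.57), and 31 fell, led by Emcn (-1.84), Cd34 (-1.50) and Ctnnb1 (-0.91). Over all genes 31.8% were called higher there and 30.6% lower, so the share that rose was again not above that over all genes. Between CD43-high and CD43-low EHT cells, 12 of 35 fell and 1 rose, where 7.08% of all genes were called lower and 5.05% higher. Gja4 was at -3.37, F11r, which encodes the junctional adhesion molecule JAM-A, at -0.98 and Eng at -0.85. By genotype, 4 of 46 passed in EMP (4.74% over all genes), Itga6 (0.60, adjusted p = 0.0770) and Vcl (-0.45, adjusted p = 0.0974) among them, 2 of 62 in myeloid cells (3.26% over all genes), Itga4 (0.48, adjusted p = 0.062) among them, and 0 in the other types.

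Likeness of pattern over the 10 cell types of WT, measured as Pearson's r of mean log2(CPM + 1) among 9761 genes, put other genes of cell contacts beside some of the 8. Tjp1 was most like Cgnl1, which encodes the junction protein paracingulin (r = 0.998), followed by Nr2f6 and Ecscr, an endothelial surface protein (0.996). Esam was most like Cd151, a tetraspanin (0.986), followed by Arl16 and Tmem120b (0.981). Pecam1 was nearest to Eml1 (0.995), Sec62 and the adhesion receptor Mcam (0.990), and Cdh5 to Igf2r (0.997) and Llgl1 (0.996). Cldn5 was nearest to Crip2 (0.999), S100a16 and Plxnd1, a semaphorin receptor of endothelium (0.998). The remaining 3 genes were nearest to Dab2ip (0.989), Cdc16 and Hyal2 (0.984) for Icam2, to Tspan6 (0.984), Amot and Mob4 (0.979) for Podxl, and to Mxra8 (0.958), Chst1 and Zadh2 (0.956) for Jam2. Among the 8 genes themselves, r was highest for Cdh5 with Tjp1 (0.992) and lowest for Jam2 with Podxl (0.659). The cell types share libraries, and with 10 points that fall into endothelium and blood high values of r are common, so these are descriptions only.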

How the data were processed

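Per the labels and the study's methods, CD31+ cells of E10.5 AGMs were run with 10x 3' v3 chemistry and antibody tags, and UMIs were counted with Cell Ranger 3.0.2 against mm10. The authors deposited raw UMI counts per gene and cell for cells with over 2000 genes and under 10% mitochondrial counts, with their own cell type names, which were used as given. Here counts were summed per library and cell type (at least 10 cells), scaled by TMM, filtered by filterByExpr and tested with edgeR 4.0.16 in R 4.3.3 (quasi-likelihood F test, two-sided, Benjamini-Hochberg over all genes tested, threshold 0.1). Cell types were compared in WT with the library as a block, and genotypes over 5 against 3 libraries without one. The same replicate number in both genotypes was not taken to pair the libraries. In no genotype comparison did every pair of numbered libraries deviate together with r over 0.1 (in vEC the values were -0.13, 0.18 and 0.27). With so few libraries this check cannot show that no batch or litter was shared. The test was checked on simulated counts. The rest was done in Python 3.11.15 with scipy 1.17.1, numpy 2.4.6, matplotlib 3.10.9 and pandas 2.3.3.

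Cells were thinned to 5000 UMIs for shares of cells. Scrublet in scanpy 1.11.5 marked 83 of 15168 cells as doublets, which were kept in the main analysis. Tag values were missing for CD44 in 6309 cells, and that tag was not used. Alternatives tried were DESeq2 1.42.0, RLE size factors, no filter, no doublets, thinned counts, sums of at least 20 cells, the block, a depth covariate, WT 5 as the only WT library, another tag and each library left out. The members and the wider list were chosen with earlier results of these data known. All 8 members are named in every comparison. From the wider list, at most 3 genes per direction with the largest change among those called at a mean log2 CPM of at least 5 are named, and for likeness the 3 genes with the highest r among those with at least 10 CPM in a cell type, of which 1 is not reported here.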

Additional observations from a re-analysis of the deposited data

Results flagged for a closer look

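A library far from the others was looked for in 88 groups. Most were a gene in a cell type over 4 or 5 WT libraries. The rest were the CD43-high minus CD43-low difference of each of the 8 genes in EHT over 7 libraries. Such a library was found in 9 groups, all of the first kind, where chance gives about 1 in 20. WT 5, the shallowest WT library, was low in vEC_3 for Pecam1 (130 CPM, the others 156 to 164), Cldn5 (583, the others 661 to 680) and Tjp1 (161, the others 199.9 to 210), and in vEC_1 for Cldn5 (643, the others 779 to 807). It was high for Podxl in pre-HE (103, from 16 counts, the others 46.7 to 58.3) and in myeloid cells (5.66, the others 0.558 to 1.94). WT 4 was high for Podxl in vEC_3 (41.7, the others 25.1 to 28.4) and in EMP (13.1, the others 5.33 to 6.06). WT 1 was high for Esam in Mk (203, the others 117 to 124), and Esam also rose there without it.

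Jam2 differed between aEC and pre-HE with opposite signs in the 2 genotypes, on few counts. On the log2(CPM + 1) scale every WT library was lower in pre-HE (mean -2.03) and every Meis1-flox/VE-Cre library higher (mean 0.67), among 40 pairs of a step and a gene looked at. The median WT library held 0.0 CPM in pre-HE, and the edgeR fit of this step in WT did not pass (-0.52, SE 0.39, adjusted p = 0.326). The difference between genotypes was not tested, and pre-HE held 20 Jam2 counts in WT and 6 in Meis1-flox/VE-Cre libraries. A row named CreERT2, which no comparison used, held 34 UMIs over the 3 Meis1-flox/VE-Cre libraries and 0 in WT.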

How the results depend on the processing

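The falls from pre-HE to EHT passed under all alternatives that could test them. So did the lower levels in EMP and myeloid cells than in EHT, and the higher Esam in Mk. Thinned counts left Podxl untested in EMP and myeloid cells. Members called in either direction between pre-HE and aEC numbered 3 with sums of at least 20 cells and 4 to 6 without 1 library. With DESeq2 and with thinned counts 4 rose and 0 fell. With no filter on low counts 4 rose and 1 fell. WT 1 to 5 held 39, 18, 11, 87 and 16 pre-HE cells, so that fits with at least 20 cells compared pre-HE over 2 libraries. The tag for CD45.2 called 0 members, with Tjp1 at 0.31, and 9 genes in all.

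Genotype calls of members were 0 throughout in the main analysis. With the replicate number as a block they were 1 in vEC, 2 in aEC, 2 in EHT, 5 in EMP and 4 in myeloid cells, a fit that rests on libraries 1 to 3. The same libraries without the block gave 1, 1, 1, 4 and 3, a setting chosen after seeing the data. Over all genes the block called 2351 in vEC, 731 in aEC, 450 in EHT and 953 in EMP. The main analysis called 2 of 12205, 0 of 9540, 11 of 8670 and 435 of 9172 in these types. The member counts with the block are therefore not read as results about the members. DESeq2 called 1 in vEC and WT 5 as the only WT library 1 in myeloid cells. Leaving out 1 library gave 0 to 1 in vEC, aEC and EMP and 0 to 2 in myeloid cells. Genes called overall ranged widely with genotype, from 0 to 2351 in vEC, 0 to 731 in aEC, 3 to 137 in pre-HE, 0 to 450 in EHT, 17 to 953 in EMP, 0 to 273 in Mk and 2 to 1421 in myeloid cells, mostly highest with the block or, in myeloid cells, without WT 5. In the interaction they ranged from 0 to 12, and between types from 1588 to 7172, lowest with thinned counts. For the tag split of EHT they ranged from 9, with the CD45.2 tag, to 846, with the CD43 tag and no filter.

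Several genotype differences changed sign. With median depth as a covariate, Cldn5 in aEC was at 0.13, Tjp1 in aEC at 0.079 and Pecam1 in pre-HE at 0.72. In EMP Cldn5 was at -0.014 and Esam and Icam2 at -0.20, and in myeloid cells Cdh5 was at -1.02, Cldn5 at -0.75, Esam at -0.94 and Icam2 at -0.16. With WT 5 as the only WT library, Cldn5 in aEC was at 0.11, Tjp1 in aEC at 0.047, Pecam1 in pre-HE at 0.14, Icam2 in EMP at -0.041, and Cdh5, Cldn5 and Esam in myeloid cells at -0.93, -0.51 and -0.59. Without 1 library, Esam in EMP ranged from -0.20 to 1.03. The cause was not tested. Of the log2 fold changes recomputed, 743 kept their direction and side of the threshold, 33 passed only under the alternative, 12 no longer passed and 19 changed sign. Of 801 others that were not called, 77 had the other sign. Jam2 was too low to test in most comparisons.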
